A study of Mus musculus with 12 samples.

Results

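The 10 genes described here carry out MHC class I antigen presentation and encode the immunoproteasome: the heavy chains H2-K1 and H2-D1, the light chain B2m, the peptide transporter genes Tap1 and Tap2, the loading factor Tapbp, the catalytic subunits Psmb8, Psmb9 and Psmb10, and the transactivator Nlrc5. They were taken by symbol from the deposited expression table, and 10 of 10 were found among its 27487 genes. Expression was measured by sequencing polyadenylated RNA of BV2 cells, an immortalised mouse microglial line, in 12 libraries that form 3 groups of 4. In the Neu+NETS group BV2 cells shared the culture with primary mouse neutrophils treated beforehand with PMA (phorbol 12-myristate 13-acetate), a phorbol ester that makes neutrophils release neutrophil extracellular traps (NETs). In the Neu group the neutrophils were not stimulated, and in the CTR group BV2 cells grew alone. The labels give retina as the tissue beside the BV2 cell line, and they do not state genotype, strain, culture time or the number of neutrophils. No group received PMA without neutrophils or NETs without neutrophils among the libraries used here, so PMA, stimulated neutrophils and NETs cannot be told apart in the Neu+NETS group. The labels do not say that the 4 libraries of a group came from separate cultures, and p-values then measure only the spread between these libraries.

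MHC class I molecules show peptides from inside the cell to CD8 T cells and are sensed by natural killer cells. Proteasomes cut cytosolic proteins, the TAP transporter moves the fragments into the endoplasmic reticulum, and tapasin with its partner chaperones helps load them onto a heavy chain paired with beta-2 microglobulin. Interferons raise most genes of this pathway, among them the 3 immunoproteasome subunits, which take the place of the constitutive catalytic subunits and favour peptides that fit class I grooves. Microglia at rest carry little class I on their surface and raise it under inflammation.

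On the submitters' genome build, GRCm39, 7 of the 10 genes lie on chromosome 17. Of these, 4 neighbours share 1 short stretch of it: Psmb9 (ENSMUSG00000096727, chr17:34400961-34406738, minus strand), Tap1 (ENSMUSG00000037321, chr17:34406527-34416199, plus strand), Psmb8 (ENSMUSG00000024338, chr17:34416695-34420428, plus strand) and Tap2 (ENSMUSG00000024339, chr17:34422501-34435295, plus strand). Tapbp (ENSMUSG00000024308, chr17:34134873-34145171, plus strand), H2-K1 (ENSMUSG00000061232, chr17:34214991-34219321, minus strand) and H2-D1 (ENSMUSG00000073411, chr17:35481706-35486475, plus strand) lie on either side of that stretch. The other 3 genes are B2m (ENSMUSG00000060802, chr2:121978167-121983564, plus strand), Psmb10 (ENSMUSG00000031897, chr8:106662367-106664736, minus strand) and Nlrc5 (ENSMUSG00000074151, chr8:95160984-95253900, plus strand). The spans of Tap1 and Psmb9 overlap by 212 bases on opposite strands, and Tapbp overlaps Zbtb22, which averaged 10.3 FPKM, by 3422 bases on the same strand. FPKM are fragment counts scaled to transcript length and to the size of the library. No source used here says whether the authors' counting used strand, so reads from such overlaps can count toward either gene.

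Start regions are shown for the heavy chains, the light chain and Tap1, because the class I genes are known for a shared promoter block of an interferon element, an NF-kappaB element and an SXY module, and because Tap1 and Psmb9 start back to back. The sequences are RefSeq promoter windows of the GRCm38.p6 table, each 250 bases before to 50 bases after a start, on the gene's strand. Windows were matched for 8 of the 10 genes, not for Tap2 and Nlrc5. Capitals mark the motifs searched on both strands. For the interferon response element only the form GAANNGAAA, with its fixed spacing, was searched. The others were CCAAT of the Y box, TGACG of the cyclic AMP response core, and the NF-kappaB consensus. Among all 32851 windows of the table, 7.52% held GAANNGAAA, 37.4% CCAAT, 20.8% TGACG and 8.46% the NF-kappaB consensus.
H2-K1, chr17:34000284-34000583, minus strand: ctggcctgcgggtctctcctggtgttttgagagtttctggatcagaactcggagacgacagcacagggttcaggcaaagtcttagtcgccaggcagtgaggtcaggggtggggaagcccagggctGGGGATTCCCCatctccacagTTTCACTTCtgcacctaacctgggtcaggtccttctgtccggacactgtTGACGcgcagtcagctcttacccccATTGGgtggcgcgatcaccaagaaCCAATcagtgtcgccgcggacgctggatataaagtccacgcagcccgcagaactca
H2-D1, chr17:35262844-35263143, plus strand: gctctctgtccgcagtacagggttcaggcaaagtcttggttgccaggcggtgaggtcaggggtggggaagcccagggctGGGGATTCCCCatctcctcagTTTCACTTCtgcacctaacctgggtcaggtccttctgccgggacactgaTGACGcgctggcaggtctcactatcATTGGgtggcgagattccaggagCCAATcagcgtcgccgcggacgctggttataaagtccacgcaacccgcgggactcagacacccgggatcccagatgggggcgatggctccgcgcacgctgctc
B2m, chr2:122147437-122147736, plus strand: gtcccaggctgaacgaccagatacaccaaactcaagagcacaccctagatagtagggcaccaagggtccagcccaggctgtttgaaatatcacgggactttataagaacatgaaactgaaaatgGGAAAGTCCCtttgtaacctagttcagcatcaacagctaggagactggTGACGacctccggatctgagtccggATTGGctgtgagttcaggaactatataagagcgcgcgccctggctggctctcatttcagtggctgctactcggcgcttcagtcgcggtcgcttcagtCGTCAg
Tap1, chr17:34187306-34187605, plus strand: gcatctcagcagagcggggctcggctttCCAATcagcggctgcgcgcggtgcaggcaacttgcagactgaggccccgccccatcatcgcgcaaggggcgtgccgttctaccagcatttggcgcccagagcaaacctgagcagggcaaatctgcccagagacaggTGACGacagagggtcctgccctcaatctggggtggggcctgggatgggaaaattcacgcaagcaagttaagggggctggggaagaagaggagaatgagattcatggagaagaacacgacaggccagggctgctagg

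The H2-K1 and H2-D1 windows aligned over 228 columns with 206 identical bases, or 90.4%. Each held 1 match to GAANNGAAA, read as TTTCACTTC on the printed strand, 1 TGACG and 2 CCAAT, of which 1 is read as ATTGG. The 4 NF-kappaB matches in each of these windows overlap within 1 run, GGGGATTCCCC. In the B2m window there was 1 NF-kappaB match, 1 CCAAT and 2 TGACG, and 0 matches to GAANNGAAA. That window also reads gaaactgaaa just before its NF-kappaB match, a wider spacing that GAANNGAAA cannot match. Other spacings were not searched in any window, so 0 matches do not show that an interferon element is absent. The Tap1 window held 1 CCAAT and 1 TGACG, and it shares 275 bases with the Psmb9 window on the opposite strand, since the 2 starts lie 226 bases apart. For Tapbp there were 2 CCAAT matches and no other, and 0 matches of any of the 4 motifs were found in the windows of Psmb8 and Psmb10. These matches describe the printed letters in 1 window each and were not tied to any binding data.

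Against BV2 cells alone, most class I genes were lower with PMA-stimulated neutrophils and went either way with unstimulated ones. In Neu+NETS against CTR, 9 of the 10 genes fell and 0 rose at an edgeR adjusted p under 0.05, while 23.7% of the 16387 genes tested were lower, 21.6% higher and 45.3% called in either direction. At an unadjusted p under 0.05, 10 were lower and 0 higher with edgeR, and DESeq2 gave 9 lower and 0 higher. In Neu against CTR, 4 of the 10 rose and 1 fell, where 26.1% of all genes were higher, 27.9% lower and 54.1% called in either direction. In Neu+NETS against Neu, 9 of the 10 fell and 0 rose (0 also at an unadjusted p under 0.05 and with DESeq2), where 33.1% of all genes were lower, 29.4% higher and 62.5% called in either direction. The median log2 fold change of the 10 genes was -0.53 in Neu+NETS against CTR, 0.012 in Neu against CTR and -0.546 in Neu+NETS against Neu, beside 0.000206, 0.02 and -0.0487 over all genes tested. The comparisons share libraries, so their values are set side by side and are not independent of each other.

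**Figure D1:**
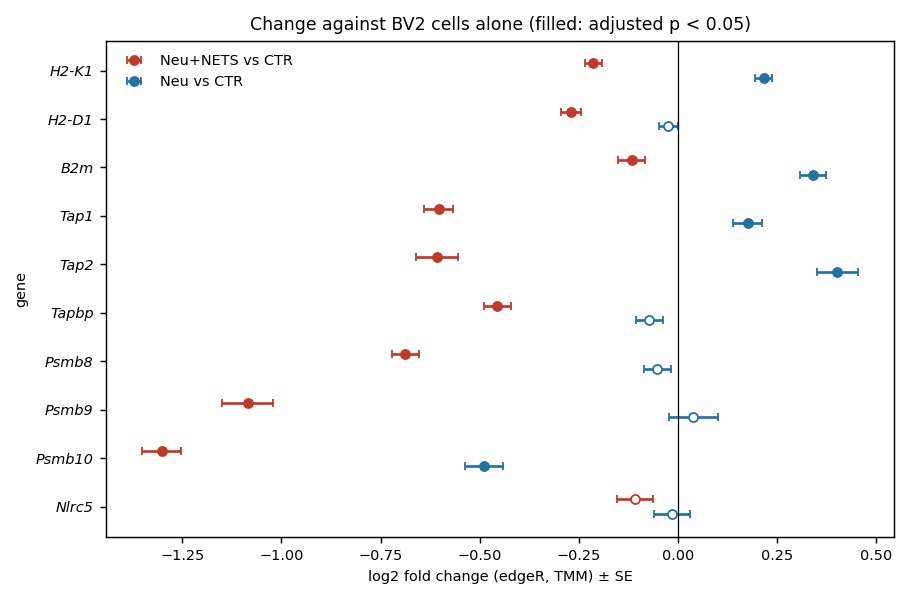
Log2 fold change of each gene (x axis, edgeR with TMM scaling; bars are the SE) in Neu+NETS against CTR (red) and in Neu against CTR (blue), with 4 libraries a group and filled points where the adjusted p is under 0.05. Red points lie at or left of -0.11 for the 10 genes and reach -1.302 for Psmb10, and blue points lie between -0.49 (Psmb10) and 0.40 (Tap2).

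Levels are given as the authors' FPKM, and fold changes come from the edgeR fit of the estimated counts with TMM scaling. The scales differ: over 6312 well-expressed genes the FPKM difference exceeded the TMM fold change by a median of 0.0489 log2 units in Neu+NETS against CTR, by 0.105 in Neu+NETS against Neu, and lay 0.0555 below it in Neu against CTR. Library totals ran between 53512190 and 68316549 estimated counts, the 10 genes had at least 913 counts in each library, and the lowest such value was that of Psmb9. In 1 Neu library, replicate 4, the counts stood apart from the other Neu libraries: chi-square per degree of freedom was 4.16 to 4.47 against them and 1.87 to 2.10 among them. Pairs within Neu+NETS gave 2.87 to 3.42 and pairs within CTR 2.74 to 3.74. The other Neu libraries were thus more alike than any pair of those groups, and the cause was not tested. Without Neu replicate 4, 10 of the 10 genes were lower in Neu+NETS against CTR, 4 were higher and 2 lower in Neu against CTR, and 9 were lower in Neu+NETS against Neu.

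The classical heavy chains went down with stimulated neutrophils and parted ways with unstimulated ones. H2-K1, which encodes the K heavy chain, had 218, 222, 219 and 223 FPKM in Neu+NETS libraries, 266, 273, 278 and 288 FPKM in Neu libraries and 245, 251, 246 and 246 FPKM in CTR libraries. All 4 Neu+NETS values lay below the CTR values and all 4 Neu values above them, with no overlap. Its log2 fold change was -0.21 ± 0.0225 (SE) in Neu+NETS against CTR (edgeR adjusted p = 6.11e-07) and 0.22 ± 0.0224 in Neu against CTR (edgeR adjusted p = 3.17e-07). Between the co-cultures it was 1.35-fold lower in Neu+NETS than in Neu. H2-D1, the D heavy chain gene, had 312, 296, 306 and 307 FPKM in Neu+NETS libraries, 326, 336, 336 and 346 FPKM in Neu libraries and 359, 355, 361 and 347 FPKM in CTR libraries. Neu+NETS values were the lowest here too, and the Neu values lay just under the lowest CTR value. H2-D1 fell 1.21-fold in Neu+NETS against CTR (edgeR adjusted p = 8.96e-08), whereas Neu against CTR gave -0.03 ± 0.0241 (edgeR adjusted p = 0.405); limma on FPKM called that difference lower (-0.0813, adjusted p = 0.00965). The ratio of H2-K1 to H2-D1 FPKM, chosen after the values were seen, averaged 0.723 ± 0.0215 in Neu+NETS, 0.822 ± 0.00895 in Neu and 0.695 ± 0.0152 in CTR (SD, n = 4 each). By a two-sided exact permutation test on the log2 ratio it was higher in Neu than in CTR by 0.241 and lower in Neu+NETS than in Neu (difference -0.184), each with p = 0.0286 and 0.0429 adjusted over 9 tests, and Neu+NETS against CTR gave 0.0567 with p = 0.114 and 0.129 adjusted. With 1 added to each FPKM the differences of this ratio hardly moved (0.24 and -0.183), but both calls were lost (exact permutation, adjusted p = 0.0514 each). That adjustment runs over the 9 tests together, so it also depends on the p-values of the other ratios. In GENCODE M21 transcripts, 13.9% of the distinct 50-base words of H2-D1 and 6.87% of those of H2-K1 also occur in another gene, with H2-D1 holding 5.43% of the H2-K1 words, so part of their counts depends on how shared reads were split.

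B2m encodes beta-2 microglobulin, the light chain of every class I molecule. It had 1573, 1557, 1620 and 1646 FPKM in Neu+NETS libraries, 2008, 2120, 2112 and 1922 FPKM in Neu libraries and 1719, 1676, 1615 and 1696 FPKM in CTR libraries. Neu libraries were the highest without overlap, while the Neu+NETS and CTR ranges overlapped. B2m rose 1.27-fold in Neu against CTR (edgeR adjusted p = 1.65e-07) and was 1.37-fold lower in Neu+NETS than in Neu (edgeR adjusted p = 2.44e-09). In Neu+NETS against CTR it fell by 1.09-fold (log2 -0.12 ± 0.0336, edgeR adjusted p = 0.00875), a call that was lost under total-count scaling (-0.0612, adjusted p = 0.175), without a filter (-0.109, adjusted p = 0.0503) and with limma on FPKM (-0.0683, adjusted p = 0.101). It ranked 11 in Neu+NETS, 11 in Neu and 14 in CTR by mean FPKM among 27487 genes. The ratio of B2m to the sum of H2-K1 and H2-D1 FPKM averaged 3.04 ± 0.0662, 3.34 ± 0.208 and 2.78 ± 0.0907 in Neu+NETS, Neu and CTR (SD, n = 4 each) and is given without a test.

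**Figure D2:**
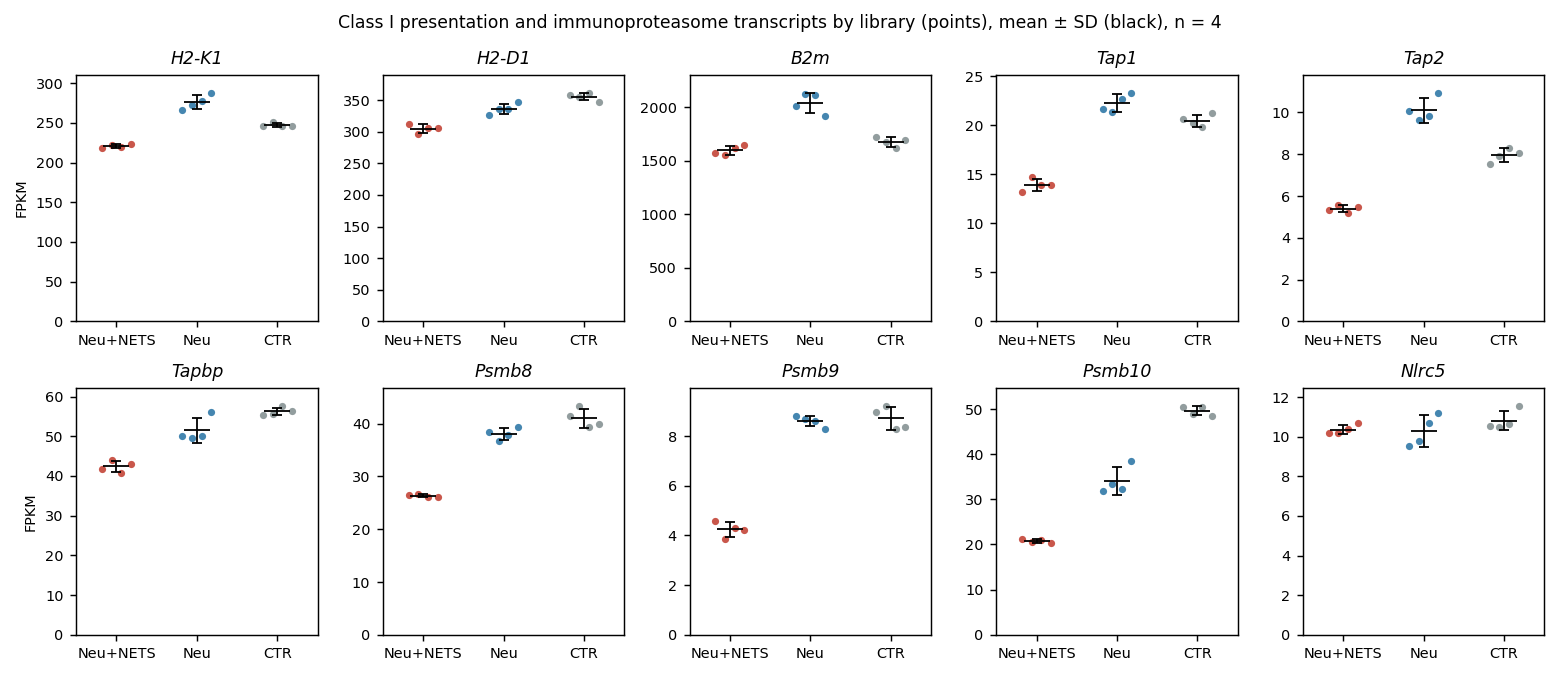
FPKM (y axis, from 0) of each gene in the 4 libraries of Neu+NETS (red), Neu (blue) and CTR (grey), with the mean ± SD in black. Psmb10 averages 20.8, 34.0 and 49.6 FPKM in these groups without overlap, and the Nlrc5 ranges overlap across the 3 groups.

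Beside these, 17 class I heavy chain genes were listed, of which 15 were in the table, 13 passed the filter on low counts and 2 were not analysed here. In Neu+NETS against CTR 9 of the 13 fell and 0 rose (0 at an unadjusted p under 0.05, 8 lower with DESeq2), with a median of -0.59, and 6 fell under total-count scaling. In Neu against CTR 5 rose and 1 fell with a median of 0.0487. In Neu+NETS against Neu 11 fell and 0 rose (0 at an unadjusted p under 0.05 and with DESeq2) with a median of -0.941. Over all genes tested, 23.7% fell and 21.6% rose in Neu+NETS against CTR, and 27.9% and 26.1% in Neu against CTR. For Neu+NETS against Neu these shares were 33.1% and 29.4%. H2-T23, the Qa-1 heavy chain read by inhibitory natural killer receptors, averaged 26.7 ± 0.878 FPKM in Neu+NETS, 49.9 ± 1.99 in Neu and 38.8 ± 1.51 in CTR (SD, n = 4 each). It fell 1.51-fold in Neu+NETS against CTR and rose 1.34-fold in Neu against CTR. The formyl peptide presenter H2-M3 averaged 7.06 ± 0.198 FPKM in Neu+NETS, 10.8 ± 0.433 in Neu and 10.8 ± 0.997 in CTR, a 1.58-fold fall in Neu+NETS against CTR, with 0.05 ± 0.0743 in Neu against CTR (edgeR adjusted p = 0.618) and a sign there that turned with limma. The nonclassical genes H2-Q4 and H2-T24 fell 1.73-fold and 2.34-fold in Neu+NETS against CTR.

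Among the class I-like genes that do not present peptides to classical CD8 T cells, Hfe, a regulator of iron uptake, averaged 2.35 ± 0.219 FPKM in Neu+NETS, 6.41 ± 0.349 in Neu and 8.08 ± 0.2798 in CTR (SD, n = 4 each), 3.54-fold lower in Neu+NETS than in CTR and 1.21-fold lower in Neu than in CTR. Mr1, which presents microbial vitamin B metabolites, averaged 1.602 ± 0.1302 FPKM in Neu+NETS, 4.43 ± 0.306 in Neu and 1.85 ± 0.162 in CTR. It fell 1.19-fold in Neu+NETS against CTR (edgeR adjusted p = 0.0182) and rose 2.49-fold in Neu against CTR. The fall was not called with limma on FPKM (adjusted p = 0.061 to 0.164), under total-count scaling (-0.2, edgeR adjusted p = 0.0599) or without Neu+NETS replicate 1 (-0.216, 0.0651), Neu+NETS replicate 3 (-0.236, 0.0547) or CTR replicate 4 (-0.216, 0.0648). Fcgrt, the neonatal Fc receptor heavy chain, read -0.26 ± 0.101 in Neu+NETS against CTR (edgeR adjusted p = 0.048), a call that was lost with DESeq2 (adjusted p = 0.0672), limma (0.0639 to 0.167) and most other settings, and whenever a library other than CTR replicate 1 was left out, and it rose 1.83-fold in Neu against CTR. Mr1 and Fcgrt thus had their highest group mean in Neu, and Hfe in CTR.

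The 2 subunits of the peptide transporter fell by a similar factor with stimulated neutrophils and rose with unstimulated ones. Tap1 had 13.2, 14.7, 13.9 and 13.9 FPKM in Neu+NETS libraries, 21.7, 21.3, 22.6 and 23.3 FPKM in Neu libraries and 20.6, 20.2, 19.8 and 21.3 FPKM in CTR libraries. Neu+NETS libraries formed the lowest group by a wide margin, and the Neu values lay just above the highest CTR value. Tap1 fell 1.52-fold in Neu+NETS against CTR (log2 -0.60 ± 0.0366, edgeR adjusted p = 6.8e-10) and rose 1.13-fold in Neu against CTR (edgeR adjusted p = 0.000525). Tap2 had 5.35, 5.55, 5.19 and 5.49 FPKM in Neu+NETS libraries, 10.1, 9.62, 9.81 and 10.9 FPKM in Neu libraries and 7.52, 7.91, 8.32 and 8.05 FPKM in CTR libraries. The 3 groups did not overlap, with Neu the highest and Neu+NETS the lowest. Tap2 fell 1.53-fold in Neu+NETS against CTR (log2 -0.61 ± 0.0523, edgeR adjusted p = 5.56e-08), rose 1.32-fold in Neu against CTR (edgeR adjusted p = 3.78e-06) and was 2.01-fold lower in Neu+NETS than in Neu. The ratio of Tap2 to Tap1 FPKM, also chosen after the values were seen, averaged 0.388 ± 0.0146 in Neu+NETS, 0.455 ± 0.0160 in Neu and 0.389 ± 0.0236 in CTR (SD, n = 4 each). Exact permutation tests gave a log2 difference of 0.226 in Neu against CTR and of -0.23 in Neu+NETS against Neu, each with p = 0.0286 and 0.0429 adjusted over 9 tests, and of -0.00368 in Neu+NETS against CTR with p = 0.943. With 1 added to each FPKM both calls were lost (0.197 and -0.158, exact permutation, adjusted p = 0.0514 each). Here too the adjustment over 9 tests depends on the p-values of the other ratios.

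Tapbp encodes tapasin, which bridges TAP and the empty heavy chain. It had 41.8, 44.0, 40.8 and 43.1 FPKM in Neu+NETS libraries, 49.95, 49.6, 50.2 and 56.2 FPKM in Neu libraries and 55.4, 55.7, 57.6 and 56.3 FPKM in CTR libraries. Neu+NETS values were the lowest, and in Neu only replicate 4 reached the CTR range. Tapbp fell 1.37-fold in Neu+NETS against CTR (edgeR adjusted p = 9.92e-09) and read -0.07 ± 0.0341 in Neu against CTR (edgeR adjusted p = 0.0843). Without Neu replicate 4 that difference was called lower (-0.106, edgeR adjusted p = 0.00383), as it was under total-count scaling (-0.0889, adjusted p = 0.0281) and with limma on FPKM (-0.128, adjusted p = 0.0106).

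The other genes of peptide loading and trimming went in both directions, as did all genes tested. Of all genes, 21.6% rose and 23.7% fell in Neu+NETS against CTR, and 26.1% and 27.9% in Neu against CTR. The shares in Neu+NETS against Neu were 29.4% and 33.1%. Of 13 listed and tested, 6 rose and 4 fell in Neu+NETS against CTR (median 0.0319), 2 rose and 6 fell in Neu against CTR (median -0.0444, and 0.00045 under upper-quartile scaling), and 7 rose and 5 fell in Neu+NETS against Neu (median 0.144). Under DESeq2, 4 rose and 6 fell in Neu against CTR. Canx, the chaperone calnexin that folds new heavy chains, averaged 133 ± 1.97 FPKM in Neu+NETS, 92.03 ± 2.28 in Neu and 109 ± 0.818 in CTR (SD, n = 4 each) and rose 1.19-fold in Neu+NETS against CTR. Sec61a1, the main channel subunit of the endoplasmic reticulum translocon, rose 1.39-fold in that comparison. Pdia3, the oxidoreductase ERp57 of the loading complex, averaged 301 ± 6.74 FPKM in Neu+NETS, 254 ± 2.05 in Neu and 278 ± 1.71 in CTR and rose 1.05-fold (edgeR adjusted p = 0.00984). Calr, calreticulin, read -0.04 ± 0.0207 in Neu+NETS against CTR (edgeR adjusted p = 0.101), with a sign that turned under total-count scaling and limma, and fell 1.21-fold in Neu against CTR.

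Trimming enzymes within the same list differed among themselves. Erap1, the aminopeptidase that trims peptides in the endoplasmic reticulum, averaged 9.02 ± 0.572 FPKM in Neu+NETS, 9.34 ± 0.452 in Neu and 13.5 ± 0.443 in CTR (SD, n = 4 each). It fell 1.54-fold in Neu+NETS against CTR and 1.39-fold in Neu against CTR. Ide, the insulin-degrading enzyme that can also cut peptides in the cytosol, rose 1.21-fold in Neu+NETS against CTR and fell 1.34-fold in Neu against CTR. Npepps, a cytosolic aminopeptidase, averaged 10.9 ± 0.279 FPKM in Neu+NETS, 19.8 ± 0.2703 in Neu and 11.7 ± 0.433 in CTR, fell 1.11-fold in Neu+NETS against CTR and rose 1.76-fold in Neu against CTR. Tapbpl, the peptide editor TAPBPR, read -0.27 ± 0.0986 in Neu+NETS against CTR (edgeR adjusted p = 0.0347) and 0.15 ± 0.0980 in Neu against CTR (edgeR adjusted p = 0.207). The call of Tapbpl in Neu+NETS against CTR was lost under total-count scaling (edgeR adjusted p = 0.0889), median-of-ratios factors (0.0532), no filter (0.0594) and a replicate block (0.0535), and with limma without a filter (0.0958). It was also lost without Neu+NETS replicate 3 (-0.209, 0.124) or 4 (-0.275, 0.061) and without CTR replicate 2 (-0.256, 0.0741), 3 (-0.216, 0.12) or 4 (-0.276, 0.0567).

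The 3 immunoproteasome subunits had the largest falls of the 10 genes in Neu+NETS against CTR. Psmb8, which encodes beta5i, had 26.5, 26.7, 26.2 and 26.1 FPKM in Neu+NETS libraries, 38.4, 36.7, 37.9 and 39.3 FPKM in Neu libraries and 41.6, 43.3, 39.3 and 39.98 FPKM in CTR libraries. Its Neu+NETS values lay well below the rest, and the Neu and CTR ranges touched at their edge. Psmb8 fell 1.61-fold in Neu+NETS against CTR (log2 -0.69 ± 0.0345, edgeR adjusted p = 5.81e-11) and read -0.05 ± 0.0341 in Neu against CTR (edgeR adjusted p = 0.212), which limma on FPKM called lower (-0.105, adjusted p = 0.0111). Psmb9, the beta1i gene, had 4.595, 3.85, 4.28 and 4.24 FPKM in Neu+NETS libraries, 8.79, 8.70, 8.62 and 8.299 FPKM in Neu libraries and 8.98, 9.21, 8.27 and 8.38 FPKM in CTR libraries. Neu+NETS libraries were near the middle between 0 and the level of the others, and Neu and CTR overlapped. Psmb9 fell 2.12-fold in Neu+NETS against CTR (log2 -1.09 ± 0.0642, edgeR adjusted p = 4.84e-10) and read 0.04 ± 0.0626 in Neu against CTR (edgeR adjusted p = 0.641), with a sign that turned with limma.

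Psmb10, the beta2i gene, had 21.3, 20.6, 20.99 and 20.3 FPKM in Neu+NETS libraries, 31.9, 33.4, 32.2 and 38.5 FPKM in Neu libraries and 50.5, 48.9, 50.5 and 48.6 FPKM in CTR libraries. The 3 groups did not overlap, CTR being the highest and Neu+NETS the lowest. Psmb10 fell 2.47-fold in Neu+NETS against CTR (log2 -1.302 ± 0.0490, edgeR adjusted p = 1.56e-12) and 1.404-fold in Neu against CTR (log2 -0.49 ± 0.0478, edgeR adjusted p = 1.4e-07), the 1 fall among the 10 genes in that comparison. In the ranking of all 16387 log2 fold changes of Neu+NETS against CTR from the most negative, Psmb10 stood at 887, Psmb9 at 1158 and Psmb8 at 2047.

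Of the 3 constitutive catalytic subunits that these replace, 1 fell, 1 rose and 1 did not pass the test in Neu+NETS against CTR. Psmb5, the constitutive beta5 gene, averaged 167 ± 4.67 FPKM in Neu+NETS, 121 ± 4.31 in Neu and 165 ± 7.33 in CTR (SD, n = 4 each). Its log2 fold change in Neu+NETS against CTR was -0.03 ± 0.0374 (edgeR adjusted p = 0.511), with a sign that turned under total-count scaling, and it fell 1.32-fold in Neu against CTR. Psmb6, the beta1 gene, averaged 95.1 ± 2.65 FPKM in Neu+NETS, 145 ± 3.74 in Neu and 112 ± 5.15 in CTR, fell 1.22-fold in Neu+NETS against CTR and rose 1.35-fold in Neu against CTR. Psmb7, the beta2 gene, averaged 60.1 ± 2.498 FPKM in Neu+NETS, 46.1 ± 1.31 in Neu and 50.8 ± 2.999 in CTR and rose 1.14-fold in Neu+NETS against CTR (edgeR adjusted p = 0.00194).

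A ratio of FPKM within a library does not depend on the scaling between libraries. Psmb8 over Psmb5 was 0.163, 0.156, 0.154 and 0.1604 in Neu+NETS libraries, 0.326, 0.317, 0.307 and 0.315 in Neu libraries and 0.256, 0.246, 0.244 and 0.249 in CTR libraries. Psmb9 over Psmb6 averaged 0.0446 ± 0.00219 in Neu+NETS, 0.0593 ± 0.00285 in Neu and 0.07796 ± 0.00339 in CTR (SD, n = 4 each). Psmb10 over Psmb7 averaged 0.347 ± 0.0137, 0.739 ± 0.0869 and 0.979 ± 0.0588 in the groups in that order. For each pair Neu+NETS had the lowest ratios without overlap, Psmb8 over Psmb5 was highest in Neu, and the other ratios were highest in CTR. The log2 ratios in Neu+NETS against CTR differed by -0.654 for Psmb8 over Psmb5, -0.807 for Psmb9 over Psmb6 and -1.5 for Psmb10 over Psmb7. In Neu against CTR the differences were 0.345, -0.395 and -0.411 for these pairs, and in Neu+NETS against Neu -1.0, -0.412 and -1.09. Each of the 9 two-sided exact permutation tests gave p = 0.0286, the smallest that 4 against 4 libraries allow, and 0.0286 after Benjamini-Hochberg adjustment. As a description, the 3 immunoproteasome subunits made up 13.8 ± 0.264%, 20.6 ± 0.494% and 23.3 ± 0.592% of the summed FPKM of the 6 catalytic subunits in Neu+NETS, Neu and CTR (SD, n = 4 each).

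**Figure D3:**
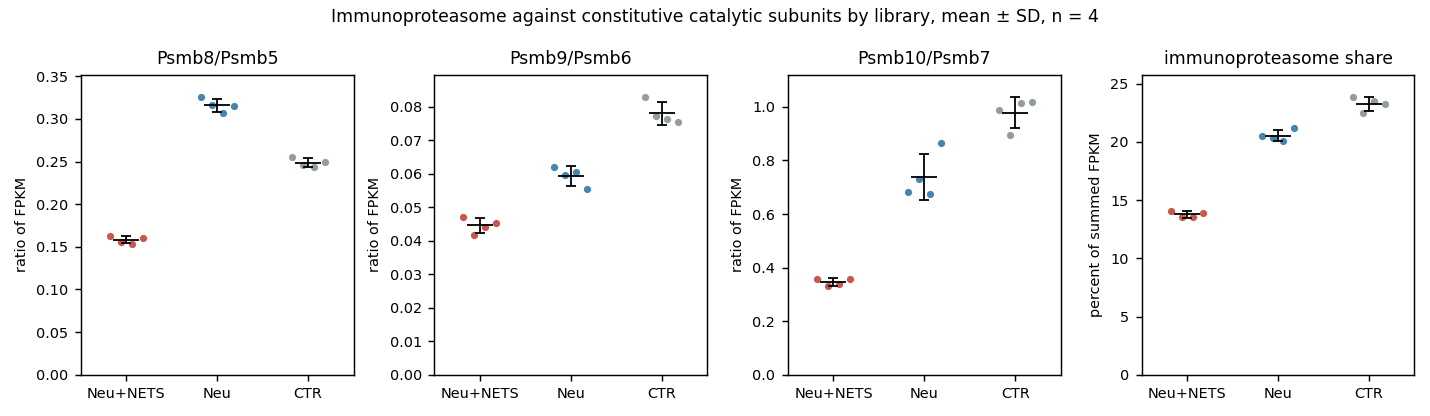
Ratio of the FPKM of an immunoproteasome subunit to that of its constitutive counterpart, and the share of Psmb8, Psmb9 and Psmb10 in the summed FPKM of the 6 catalytic subunits (y axes, from 0), in each library of Neu+NETS (red), Neu (blue) and CTR (grey), with the mean ± SD in black. Neu+NETS libraries are the lowest in each panel, and the share averages 13.8% in Neu+NETS, 20.6% in Neu and 23.3% in CTR.

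In Neu+NETS against CTR more genes of the constitutive proteasome list rose than fell. Over all genes tested, 21.6% rose and 23.7% fell in that comparison, and 26.1% and 27.9% in Neu against CTR. The shares in Neu+NETS against Neu were 29.4% and 33.1%. Of 14 constitutive subunits, assembly factors and activators, 9 rose and 3 fell in Neu+NETS against CTR (median 0.186), 1 rose and 8 fell in Neu against CTR (median -0.16), and 11 rose and 3 fell in Neu+NETS against Neu (median 0.347). Without CTR replicate 4, 7 rose and 3 fell in Neu+NETS against CTR. The 3 that fell in Neu+NETS against CTR were Psmb6 and the genes Psme1 and Psme2 of the PA28 activator, which interferon raises together with the immunoproteasome. Psme1 averaged 29.4 ± 0.673 FPKM in Neu+NETS, 44.1 ± 0.445 in Neu and 44.4 ± 2.57 in CTR (SD, n = 4 each), 1.56-fold lower in Neu+NETS than in CTR, and read 0.05 ± 0.0400 in Neu against CTR (edgeR adjusted p = 0.341; the sign turned with limma). Psme2 fell 1.46-fold in Neu+NETS against CTR (edgeR adjusted p = 0.000186). By contrast Psme3, the nuclear activator gene PA28 gamma, averaged 70.4 ± 2.31 FPKM in Neu+NETS, 33.6 ± 0.669 in Neu and 58.8 ± 1.62 in CTR, rose 1.16-fold in Neu+NETS against CTR and fell 1.68-fold in Neu against CTR. Psmd1 and Psmc1, subunits of the regulatory particle, rose 1.295-fold and 1.28-fold in Neu+NETS against CTR. Psmg2, a proteasome assembly chaperone gene, fell 1.52-fold in Neu against CTR.

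The neighbours Psmb9, Tap1, Psmb8 and Tap2 did not move by equal amounts. The log2 fold change in Neu+NETS against CTR was -1.09 ± 0.0642 for Psmb9, -0.60 ± 0.0366 for Tap1, -0.69 ± 0.0345 for Psmb8 and -0.61 ± 0.0523 for Tap2. In Neu against CTR the 2 transporter genes rose, and the 2 proteasome genes between and beside them did not pass the test. Psmb9 and Tap1 start back to back in the window printed above, and the ratio of their FPKM, chosen after the values were seen, averaged 0.306 ± 0.0354 in Neu+NETS, 0.388 ± 0.0245 in Neu and 0.426 ± 0.0265 in CTR (SD, n = 4 each). The log2 ratio was lower in Neu+NETS than in CTR (difference -0.484) and than in Neu (difference -0.349), each with exact permutation p = 0.0286 and 0.0429 adjusted over 9 tests, and Neu against CTR gave -0.135 with p = 0.114 and 0.129 adjusted. With 1 added to each FPKM both calls were lost (-0.366 and -0.238, exact permutation, adjusted p = 0.0514 and 0.0857). Here too the adjustment over 9 tests depends on the p-values of the other ratios.

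**Figure D4:**
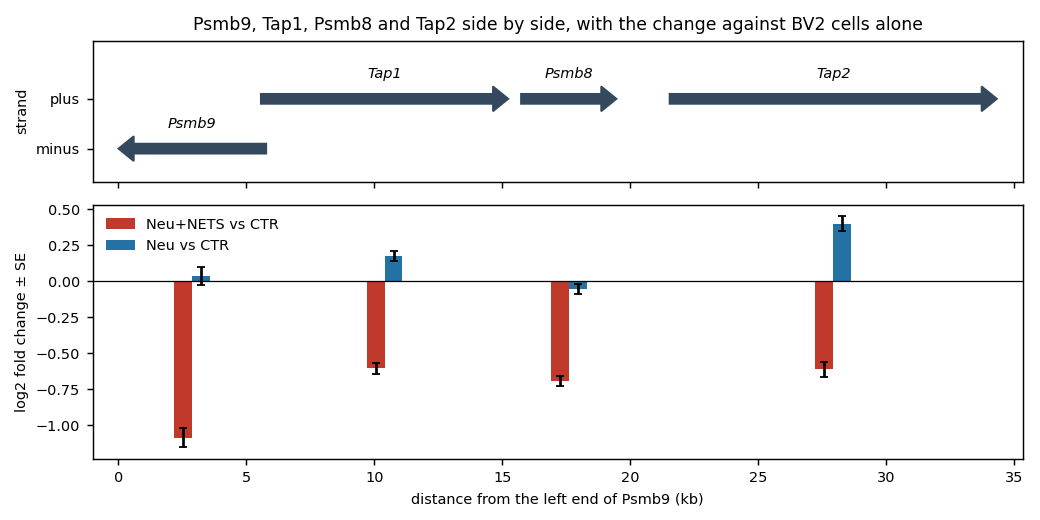
Top, the spans and directions of Psmb9, Tap1, Psmb8 and Tap2 by distance from the left end of Psmb9 (x axis, kilobases). Bottom, their log2 fold change with SE in Neu+NETS against CTR (red) and Neu against CTR (blue), 4 libraries a group: the red bars lie between -1.09 (Psmb9) and -0.60 (Tap1), the blue ones between -0.05 (Psmb8) and 0.40 (Tap2).

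Nlrc5, the transactivator that acts at the promoters of class I genes, had the smallest log2 fold changes of the 10 genes in the edgeR fit. It had 10.2, 10.2, 10.4 and 10.7 FPKM in Neu+NETS libraries, 9.51, 9.77, 10.7 and 11.2 FPKM in Neu libraries and 10.6, 10.5, 10.6 and 11.5 FPKM in CTR libraries. The 3 ranges overlapped, and Neu libraries spread the most. Nlrc5 read -0.11 ± 0.0452 in Neu+NETS against CTR (edgeR adjusted p = 0.0602), -0.01 ± 0.0452 in Neu against CTR (edgeR adjusted p = 0.813) and -0.09 ± 0.0452 in Neu+NETS against Neu (edgeR adjusted p = 0.0793). Without Neu replicate 1 or 4 it was called lower in Neu+NETS against CTR (-0.11 each, edgeR adjusted p = 0.0422 and 0.0344), and without Neu replicate 1 or 2 in Neu+NETS against Neu (-0.129 and -0.118, edgeR adjusted p = 0.0204 and 0.0458). A filter on CPM gave calls in both comparisons (edgeR adjusted p = 0.0495 and 0.025). So did, in Neu+NETS against CTR, a fit of only those 2 groups (0.0237) and, in Neu+NETS against Neu, upper-quartile scaling (0.0105) and counts divided by 4 (0.0365), while limma on FPKM gave the opposite sign there (0.0114, adjusted p = 0.837). Its sign in Neu against CTR turned under several settings.

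Of the other transcription regulators and interferon signalling genes most fell with stimulated neutrophils. Over all genes tested, 23.7% fell and 21.6% rose in Neu+NETS against CTR, and 27.9% and 26.1% in Neu against CTR. The shares in Neu+NETS against Neu were 33.1% and 29.4%. Among 31 listed, 30 in the table and 29 tested, 21 fell and 2 rose in Neu+NETS against CTR (median -0.371), 9 fell and 8 rose in Neu against CTR (median -0.0487; 6 fell and 9 rose under upper-quartile scaling), and 20 fell and 4 rose in Neu+NETS against Neu (median -0.261). The 2 that rose in Neu+NETS against CTR became 1 when Neu+NETS replicate 3 or 4, Neu replicate 3, or CTR replicate 1, 3 or 4 was left out. Irf1, an interferon-induced activator of class I and immunoproteasome genes, averaged 7.18 ± 0.169 FPKM in Neu+NETS, 10.5 ± 0.219 in Neu and 11.3 ± 0.831 in CTR (SD, n = 4 each). It fell 1.62-fold in Neu+NETS against CTR and read -0.05 ± 0.0504 in Neu against CTR (edgeR adjusted p = 0.447). Irf8, a factor of macrophage identity that also binds interferon elements, averaged 5.57 ± 0.292 FPKM in Neu+NETS, 16.4 ± 0.691 in Neu and 11.6 ± 0.342 in CTR, fell 2.16-fold in Neu+NETS against CTR and rose 1.46-fold in Neu against CTR. Irf2 fell 1.303-fold in Neu+NETS against CTR and read 0.05 ± 0.0734 in Neu against CTR (edgeR adjusted p = 0.636; the sign turned with limma).

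Stat2, which carries the signal of type I interferon receptors to the nucleus, averaged 5.697 ± 0.303 FPKM in Neu+NETS, 14.98 ± 0.449 in Neu and 9.11 ± 0.1903 in CTR (SD, n = 4 each), fell 1.65-fold in Neu+NETS against CTR and rose 1.71-fold in Neu against CTR. Stat3, which carries signals of the interleukin-6 family, was 1.801-fold lower in Neu+NETS than in Neu and rose 1.64-fold in Neu against CTR. Nfkb1, an NF-kappaB subunit gene, fell 1.47-fold in Neu+NETS against CTR. Nfya, which encodes a subunit of the factor that binds CCAAT, averaged 14.2 ± 0.342 FPKM in Neu+NETS, 11.8 ± 0.172 in Neu and 18.8 ± 0.678 in CTR and fell 1.37-fold in Neu+NETS against CTR and 1.54-fold in Neu against CTR. Rfx5, part of the complex that binds the X box of the SXY module, read -0.05 ± 0.0763 in Neu+NETS against CTR (edgeR adjusted p = 0.65), with a sign that turned under total-count scaling, and rose 1.35-fold in Neu against CTR (edgeR adjusted p = 0.000111).

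**Figure D5:**
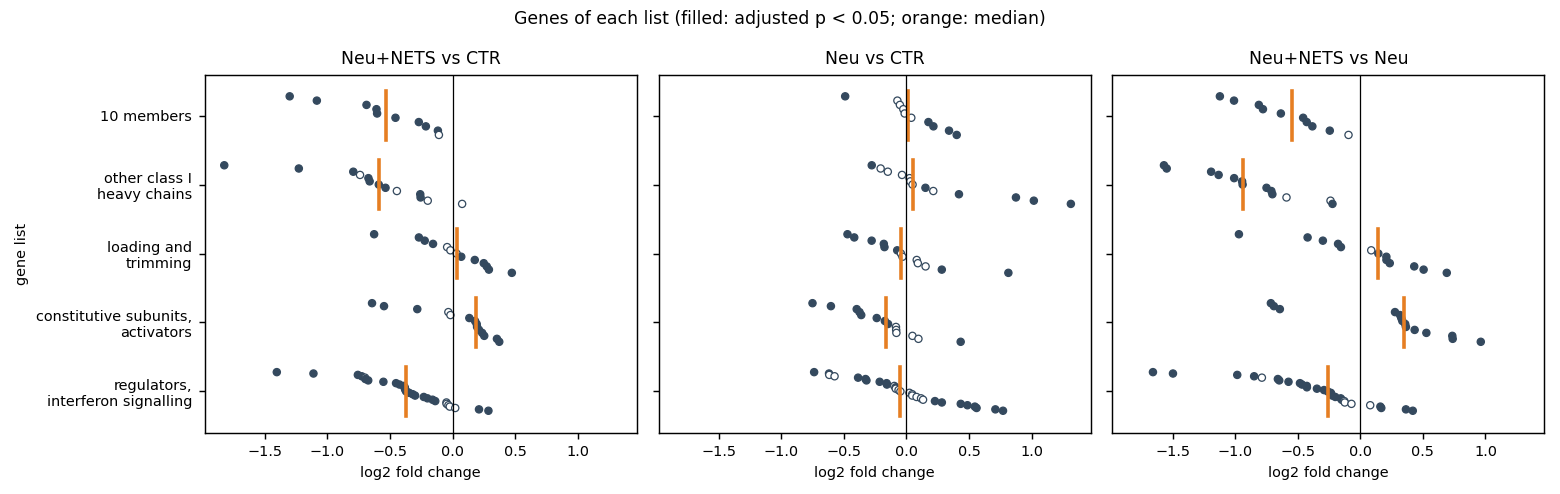
Log2 fold change (x axis) of each tested gene of the 10 genes and of 4 lists of the pathway (rows), in Neu+NETS against CTR, Neu against CTR and Neu+NETS against Neu, filled where the edgeR adjusted p is under 0.05 and with the median as an orange bar. Medians of the 10 genes, of the other heavy chains and of the regulators lie below 0 in Neu+NETS against CTR (-0.53, -0.59 and -0.371), and that of the constitutive proteasome list above it (0.186).

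Genes of class I turnover and of ligands read together with class I were mixed, and so were all genes tested. Of the latter, 21.6% rose and 23.7% fell in Neu+NETS against CTR, and 26.1% and 27.9% in Neu against CTR. In Neu+NETS against Neu these shares were 29.4% and 33.1%. Of 12 turnover genes listed 11 were tested: 5 rose and 1 fell in Neu+NETS against CTR, 3 rose and 3 fell in Neu against CTR (5 and 2 under upper-quartile scaling), and 5 rose and 4 fell in Neu+NETS against Neu. The 1 that fell in Neu+NETS against CTR became 2 without Neu+NETS replicate 2 or 3, and 0 under total-count scaling or with limma. Derl1 and Vcp, which draw misfolded proteins out of the endoplasmic reticulum, rose 1.49-fold and 1.34-fold in Neu+NETS against CTR, and Syvn1, a ubiquitin ligase of the same route, rose 1.27-fold. Rab11a and Rab22a, GTPases of endosomal recycling, were 1.38-fold and 1.42-fold lower in Neu+NETS than in Neu and rose 1.396-fold and 1.34-fold in Neu against CTR. Of 5 ligand genes tested among 6 listed, 1 rose and 2 fell in Neu+NETS against CTR, 3 rose and 1 fell in Neu against CTR, and 1 rose and 2 fell in Neu+NETS against Neu. Without CTR replicate 1, 2 rose in Neu+NETS against CTR. Cd274, which encodes the inhibitory ligand PD-L1, averaged 3.32 ± 0.438 FPKM in Neu+NETS, 7.03 ± 0.418 in Neu and 4.35 ± 0.435 in CTR (SD, n = 4 each), fell 1.36-fold in Neu+NETS against CTR and rose 1.68-fold in Neu against CTR. Cd47, the signal that restrains phagocytosis, averaged 6.57 ± 0.175 FPKM in Neu+NETS, 17.4 ± 0.369 in Neu and 7.74 ± 0.653 in CTR. It fell 1.22-fold in Neu+NETS against CTR and rose 2.34-fold in Neu against CTR. Of the ligands of the activating receptor NKG2D among them, the 2 named here differed. Raet1d rose 1.61-fold in Neu+NETS against CTR and 1.64-fold in Neu against CTR. Ulbp1 read 0.05 ± 0.0828 in Neu+NETS against CTR (edgeR adjusted p = 0.654) and fell 1.54-fold in Neu against CTR.

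Neutrophils also express class I, so their RNA could enter these values. Of 16 mature neutrophil markers 11 were in the table, and their summed level was 0.997 to 1.48 FPKM in Neu+NETS, 14.9 to 15.7 in Neu and 6.08 to 7.62 in CTR. Of these 11, 7 genes, among them S100a8, Cxcr2, Mmp8 and Camp, stayed under 1 FPKM in all 12 libraries, and 0 of the 11 were at 0 in all of them. S100a8, one of the most abundant transcripts of mature neutrophils, averaged 0.0547 ± 0.0703 FPKM in Neu+NETS, 0.189 ± 0.0455 in Neu and 0.257 ± 0.249 in CTR (SD, n = 4 each). Il1r2, another gene of that list, averaged 0.0425 ± 0.0299 FPKM in Neu+NETS, 8.03 ± 0.302 in Neu and 0.3198 ± 0.0685 in CTR, and made up much of the Neu sum. Most of the CTR sum was Csf3r, which averaged 0.691 FPKM in Neu+NETS, 4.16 in Neu and 5.15 in CTR. The precursor markers Mpo, Elane and Prtn3 were under 1 FPKM throughout. The sum over 4 of 5 precursor markers was 7.16 to 9.26 FPKM in Neu+NETS, 19.5 to 23.1 in Neu and 15.3 to 18.2 in CTR. Nearly all of it was Cebpe, which averaged 7.96 FPKM in Neu+NETS, 20.5 in Neu and 16.4 in CTR, where BV2 cells grew alone. The part of neutrophil RNA in the class I values was not tested.

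Markers of microglia and macrophages moved with the groups as well. The sum over 12 of 12 was 586 to 613 FPKM in Neu+NETS, 957 to 1000 in Neu and 948 to 1010 in CTR, and Csf1r, the receptor on which microglia depend, averaged 26.7 ± 0.994 FPKM in Neu+NETS, 87.9 ± 2.84 in Neu and 91.3 ± 2.995 in CTR (SD, n = 4 each). P2ry12, a marker of resting microglia, was under 1 FPKM in all libraries. Of 10 retinal markers 7 were in the table, with a sum of 26.4 to 29.3 FPKM in Neu+NETS, 21.9 to 24 in Neu and 26.8 to 28.8 in CTR, and Opn1sw, Pde6b and Gfap were among those that stayed under 1 FPKM. Most of that sum was Glul, a glutamine synthetase gene that many cell types express, which averaged 22.7 ± 1.12 FPKM in Neu+NETS, 19.7 ± 0.597 in Neu and 23.96 ± 0.947 in CTR (SD, n = 4 each), and Pou4f1 averaged 2.80 ± 0.334 FPKM in Neu+NETS, 0.533 ± 0.152 in Neu and 1.53 ± 0.147 in CTR. Lymphocyte and endothelial markers (3 of 10 and 4 of 4 in the table) summed to at most 0.0969 and 0.121 FPKM. In bulk RNA fewer cells of a type and less RNA per cell cannot be told apart, and the part of this shift in the class I values was not tested.

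By mean FPKM the order was B2m, H2-D1, H2-K1, Tapbp, Psmb8, Psmb10, Tap1, Nlrc5, Tap2 and Psmb9 in Neu+NETS, and no neighbours overlapped between their 4 values. The Neu order was the same, and there the ranges of Psmb8 and Psmb10 and those of Nlrc5 and Tap2 overlapped. In CTR, Psmb10 stood above Psmb8 and Psmb9 above Tap2, of which the last pair overlapped. Tap1 ranked 3808 in Neu+NETS, 2169 in Neu and 2627 in CTR among 27487 genes, and Psmb10 ranked 2639, 1367 and 961 in these groups.

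The search for genes with the most similar profile over the 12 libraries left out the 10 genes, low-FPKM genes and clone or predicted-gene names. Among the 7597 left, the most similar were found by the root mean square difference of log2(FPKM + 1) from the CTR mean. For B2m these were Eif4a2 (0.0295), Dync1i2 (0.0423) and M6pr (0.0427), and for Tap1 they were Hexa (0.0365), Rhog (0.0386) and Apobec3 (0.0499). For Psmb8 the nearest were Ctnnb1 (0.0495), Man2c1 (0.0552) and Ccnb2 (0.0567), and for Nlrc5 they were Dhx38 (0.0432), Mark2 (0.0463) and Tpp1 (0.0474). Rhog, which encodes a small GTPase, averaged 49.8 ± 2.32 FPKM in Neu+NETS, 76.7 ± 2.04 in Neu and 72.4 ± 2.64 in CTR, and Ctnnb1, the beta-catenin gene, 138 ± 1.42, 194 ± 4.13 and 204 ± 1.68 (SD, n = 4 each).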

How the data were processed

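Polyadenylated RNA of 12 BV2 libraries was analysed from 1 table of 27487 genes, with a column of estimated counts and one of FPKM per library; columns were matched by name and 0 were left over. FPKM were computed and deposited by the authors, per the file headers. The estimated counts are the authors' whole numbers, deposited without scaling between libraries per the file headers; 33.0% of values from 2 to 41 are multiples of 4 where an even spread gives 25%, so a fragment appears to stand for about 4 units. Tools named in the submitters' processing notes are edgeR, HISAT2 2.0.4 and StringTie 1.3.4d, with build GRCm39; no source used here gives the annotation or the strand setting.

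Genes were kept by filterByExpr (16387), scaled by TMM (factors 0.970 to 1.03) and fitted in 1 quasi-likelihood model over all libraries (edgeR 4.0.16, R 4.3.3; common biological variation 12.5%), tested on simulated data first. P-values are two-sided and Benjamini-Hochberg adjusted over all genes, and a gene was called under 0.05; SE is the log2 fold change over the square root of F. Alternatives were DESeq2 1.42.0, limma 3.58.1 on log2 FPKM, other scalings and filters, and leaving out each library. Ratios were tested by exact permutation over libraries, with all regroupings listed in Python 3.11.15 and the Benjamini-Hochberg adjustment taken from scipy 1.17.1. The genes, lists and marker lists were chosen with earlier results of these data known. Named were the 10 genes, a fixed set from the lists and, per list and comparison, up to 3 called genes with the smallest adjusted p. The 3 ratios H2-K1 to H2-D1, Tap2 to Tap1 and Psmb9 to Tap1 were added after the values were seen. Their adjusted p-values take no account of that choice. Same-numbered libraries did not deviate together (correlations -0.0546 to 0.0426, 12 pairs), so numbers were not used as pairs. Some listed genes were not analysed or are not reported here.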

Additional observations from a re-analysis of the deposited data

Results flagged for a closer look

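Of 48 sets of 4 libraries tested for a value far from the other 3, 3 were flagged, where chance flags about 1 in 20. H2-K1 in CTR replicate 2 read 251 FPKM, with the other CTR libraries at 245 to 246. Tapbp in Neu replicate 4 read 56.2 FPKM, with the other Neu libraries at 49.6 to 50.2. Nlrc5 in CTR replicate 4 read 11.5 FPKM, with the other CTR libraries at 10.5 to 10.6.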

How the results depend on the processing

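Of 30 results for single class I genes (10 genes, 3 comparisons), 22 kept their direction and their side of the threshold in all 24 alternatives. The count of the 10 genes called ran from 8 to 10 in Neu+NETS against CTR, from 5 to 8 in Neu against CTR and from 9 to 10 in Neu+NETS against Neu; leaving out 1 library gave 9 to 10, 5 to 6 and 9 to 10. The 8 in Neu against CTR came with limma on FPKM, under each pseudocount and without a filter (4 higher, 4 lower). Over all genes the calls ran from 6854 to 7746, from 8200 to 9038 and from 8904 to 10381 in these comparisons. The split of higher and lower calls over all genes moved with the scale. It was 4358 and 3332 under total-count scaling and 4019 and 2852 with limma, beside 3535 and 3885, for Neu+NETS against CTR. For Neu against CTR it was 3180 and 5045 with limma beside 4284 and 4578, and for Neu+NETS against Neu 5341 and 3581 with limma beside 4819 and 5422.

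Signs turned for differences near 0 that no setting called in both directions, and the cause was not tested. In Neu against CTR, H2-D1 read 0.0194 and Nlrc5 0.0299 under upper-quartile scaling, Nlrc5 0.00974 with a CPM filter and 0.00375 with counts divided by 4, and Nlrc5 ran from -0.0466 to 0.0192 with 1 library left out. With limma at log2(FPKM + 1), log2(FPKM + 0.1) and without a filter, Neu against CTR gave -0.0148, -0.0162 and -0.0148 for Psmb9, -0.00613, -0.00622 and -0.00613 for Psme1, -0.00407, -0.00413 and -0.00407 for H2-M3, and -0.00608, -0.00689 and -0.00608 for Irf2. With these settings Nlrc5 gave 0.0114, 0.0126 and 0.0114 in Neu+NETS against Neu, and in Neu+NETS against CTR Psmb5 gave 0.0159, 0.016 and 0.0159 and Calr 0.00529, 0.0053 and 0.00529. Total-count scaling gave 0.0223 for Psmb5, 0.0126 for Calr and 0.00702 for Rfx5 in Neu+NETS against CTR. Leaving out 1 library there gave -0.0489 to 0.00279 for Psmb5 and -0.102 to 0.00333 for Rfx5. Under upper-quartile scaling H2-T24 read 0.00916 and Sec61a1 0.0128 in Neu against CTR. Raet1d in Neu+NETS against Neu gave 0.0422 under total-count scaling, 0.00235 with only these groups fitted, 0.0668, 0.0761 and 0.0668 with limma in the order above, and -0.0822 to 0.0277 with 1 library left out. The Tap2 to Tap1 log2 ratio of FPKM + 1 differed by 0.0394 in Neu+NETS against CTR.

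With replicate number as a block, 10, 5 and 10 of the 10 genes were called in Neu+NETS against CTR, Neu against CTR and Neu+NETS against Neu, and 7310, 8824 and 10208 of all genes; Nlrc5 then passed with edgeR adjusted p = 0.0231 and 0.0355 in the comparisons with Neu+NETS. Of 12 pairs 0 correlated above 0.1 and 1 library correlated best with its own number, so the libraries share only a number. Paired sign flips of the 3 catalytic subunit ratios kept the differences, such as -0.654 for Psmb8 over Psmb5 in Neu+NETS against CTR, with p = 0.125, the smallest that 4 pairs allow in an exact permutation test. With 1 library left out (3 against 4) that difference ran from -0.668 to -0.640 and is a value without a test.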
